A study of Mus musculus with 6 samples.

Results

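Platelets are shed by megakaryocytes, and the RNA of their surface receptors, granule proteins and secretion machinery is already made in megakaryocyte progenitors. Glycoprotein Ib-IX-V binds von Willebrand factor and holds platelets to an injured vessel wall, and integrin αIIbβ3 then binds fibrinogen and joins platelets to each other. The contents of alpha granules and dense granules are released on activation. Megakaryocyte and erythroid cells arise from a shared progenitor, and some of these genes are also read in stem cells and in basophils.

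The data describe 10 genes, chosen by name from the gene columns PF4, GP5, GP9, GP1BB, ITGA2B, ITGB3, PLEK, SERPINE2, VWF and RAB27B of 18011 gene symbols. They are written below in the mouse form (Pf4, Gp5 and so on), and all 10 were present in all 6 tables. Gp1bb, Gp9 and Gp5 encode 3 chains of the glycoprotein Ib-IX-V receptor, and Itga2b and Itgb3 encode the 2 chains of integrin αIIbβ3. Pf4 encodes platelet factor 4, a chemokine of alpha granules. Vwf encodes von Willebrand factor, and Serpine2 encodes protease nexin 1, an inhibitor of thrombin. Plek encodes pleckstrin, a protein kinase C substrate of platelets, and Rab27b encodes a small GTPase of dense granule secretion.

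Single-cell RNA was read from lineage-negative haematopoietic stem and progenitor cells (Lin- HSPC) of 3 Stag2 KO and 3 Stag2 wild-type (WT) mice with the 10x Chromium 3' kit, version 2. Stag2 encodes a subunit of cohesin. The labels give no Cre driver, age or induction for the KO mice, and each sample is 1 library. All 3 KO samples and WT sample 1 carry title codes that begin with XA, and WT samples 2 and 3 carry other codes, so that the code and the genotype are largely bound together. Stag2 itself was counted at 25.2, 23.6 and 19.98 CPM (counts scaled to 1000000 UMIs of a sum) in KO samples, against 53.0, 43.3 and 42.9 CPM in WT samples, over all kept cells.

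Of 25636 deposited cells, 23416 were kept and grouped into 37 clusters without use of the 10 genes. Total counts of unique molecular identifiers (UMIs, 1 per captured RNA molecule) were between 16155065 and 36248233 per sample, and pairs of libraries shared 11 to 48 cell barcodes. Clusters were named by marker lists that leave out the 10 genes. The megakaryocyte class was 1 cluster with 8 of 20 megakaryocyte markers raised. In that cluster 6 of 20 stem cell-like (HSC/MPP) and 5 of 18 early erythroid markers were raised as well. The class held 169, 69 and 132 KO cells against 29, 81 and 105 WT cells. The erythroid class (early erythroid markers, 2 clusters) held 256, 117 and 173 KO cells against 120, 229 and 351 WT cells. The stem cell-like class (HSC/MPP markers, 1 cluster) held 381, 148 and 356 KO cells against 139, 252 and 325 WT cells. The basophil/mast cell class held 1027, 555 and 1036 KO cells against 583, 1153 and 1800 WT cells. A T/NK cell class served as cells that should lack most of the genes.

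Upstream sequences are shown for the 4 receptor genes whose RNA rose together in the erythroid class of KO samples (below). Each is the 250 bases before the RefSeq start (build GRCm38.p6), 5′ to 3′ on the gene's strand. Capitals mark a GATA word (AGATAA or TGATAA) or an ETS word (AGGAAG or CGGAAG), on either strand. Gp5 is at chr16:30310782-30311031 (minus strand), Gp9 at chr6:87777820-87778069 (plus strand), Gp1bb at chr16:18622404-18622653 (minus strand) and Itga2b at chr11:102469884-102470133 (minus strand).
Gp5: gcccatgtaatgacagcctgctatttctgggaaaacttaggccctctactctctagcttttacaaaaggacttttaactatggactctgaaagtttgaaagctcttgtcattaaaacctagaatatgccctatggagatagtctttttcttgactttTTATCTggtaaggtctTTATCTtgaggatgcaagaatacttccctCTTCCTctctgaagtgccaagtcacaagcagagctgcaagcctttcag
Gp9: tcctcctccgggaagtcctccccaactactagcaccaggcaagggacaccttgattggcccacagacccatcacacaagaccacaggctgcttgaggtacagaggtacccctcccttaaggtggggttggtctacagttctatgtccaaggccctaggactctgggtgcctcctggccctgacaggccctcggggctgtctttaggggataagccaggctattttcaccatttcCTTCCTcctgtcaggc
Gp1bb: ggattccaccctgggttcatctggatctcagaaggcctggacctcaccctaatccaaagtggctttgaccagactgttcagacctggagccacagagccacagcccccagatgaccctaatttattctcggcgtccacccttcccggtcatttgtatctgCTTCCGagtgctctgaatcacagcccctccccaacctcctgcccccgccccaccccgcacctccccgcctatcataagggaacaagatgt
Itga2b: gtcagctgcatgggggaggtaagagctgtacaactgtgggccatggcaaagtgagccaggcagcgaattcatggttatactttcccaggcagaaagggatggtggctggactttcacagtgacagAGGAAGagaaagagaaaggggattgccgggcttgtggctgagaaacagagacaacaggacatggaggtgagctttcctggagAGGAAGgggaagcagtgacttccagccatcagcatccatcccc
All 4 windows hold an ETS word, and only that of Gp5, among these 4, holds a GATA word, at 93 and 77 bases before the start. RefSeq entries were found for 7 of the 10 genes, also for Pf4, Plek and Serpine2. Of the 7 windows, 6 hold an ETS word and 1 holds a GATA word. Pf4 and Plek also rose in the erythroid class, and the window of Pf4 holds an ETS word while that of Plek holds neither word. The window of Serpine2, a gene too low to test in that class, holds an ETS word. Of 32841 promoter windows of the same length, 39.2% hold the ETS word and 16.6% hold the GATA word. These matches are letters in a window and were not tested as binding sites.

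Across the 4 classes and the T/NK cells, 8 of the 10 genes averaged highest in the megakaryocyte class, and Itga2b and Serpine2 averaged highest in the basophil/mast cell class. Pf4 was counted at 3494, 2581 and 2732 CPM in KO megakaryocyte-class samples and at 3406, 3765 and 2845 CPM in WT samples. In the erythroid, stem cell-like, basophil/mast cell and T/NK classes it stayed between 2.47 and 88.3 CPM. Over all 6 samples Pf4 averaged 32.5 ± 6.3 CPM in the stem cell-like class and 26.7 ± 31 CPM in the erythroid class (SD, n = 6), which overlap, the erythroid spread being set by KO sample 3. In WT samples alone Pf4 was higher in the stem cell-like class, at 28.0 to 38.9 CPM, than in the erythroid class, at 8.77 to 10.4 CPM. It averaged 4.70 ± 1.7 CPM in T/NK cells, and 3.42 ± 0.9 CPM in the basophil/mast cell class, which also overlap. T/NK cells should lack Pf4, so a level near theirs is background.

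The 3 glycoprotein genes averaged highest in the megakaryocyte class and next highest in the erythroid class. Gp5 averaged 93.0 ± 29 CPM in the megakaryocyte class, 52.0 ± 28 in the erythroid class, 12.3 ± 6.7 in the stem cell-like class and 3.57 ± 1.4 in the basophil/mast cell class (SD, n = 6). The Gp5 ranges of the first 2 of these classes overlapped, at 47.0 to 136 CPM and 22.7 to 85.1 CPM. Gp9 averaged 157 ± 28 CPM in the megakaryocyte class, 31.2 ± 16 CPM in the erythroid class and 23.6 ± 6.2 CPM in the stem cell-like class. These last 2 did not differ beyond their spread, and in WT samples their means were 17.2 CPM in the erythroid class and 20.2 CPM in the stem cell-like class. Gp1bb averaged 135 ± 16 CPM and 13.4 ± 8.0 CPM in these 2 classes.

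Itga2b averaged 261 ± 35 CPM in the basophil/mast cell class and 213 ± 23 CPM in the megakaryocyte class, with overlapping ranges, and 41.7 ± 20 CPM in the erythroid class. Serpine2 averaged 119 ± 53 CPM in the basophil/mast cell class and 46.9 ± 31 CPM in the megakaryocyte class, and at most 8.95 CPM was seen in any erythroid, stem cell-like or T/NK sample. Serpine2 was also read outside these classes, as in granulocyte progenitor cluster 9, at 82.7, 81.3 and 82.3 CPM in KO samples, against 56.5, 60.01 and 54.9 CPM in WT samples. Vwf averaged 28.7 ± 16 CPM in the megakaryocyte class, and no sample of the other 3 classes or of the T/NK cells passed 5.90 CPM. Itgb3 was read in the megakaryocyte class (22.2 ± 8.5 CPM) and the basophil/mast cell class (12.9 ± 6.3 CPM) but at most at 1.39 CPM in the erythroid class. Plek and Rab27b were also read in T/NK cells (62.2 ± 16 and 13.4 ± 5.8 CPM), so those cells give no background for them.

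**Figure D1:**
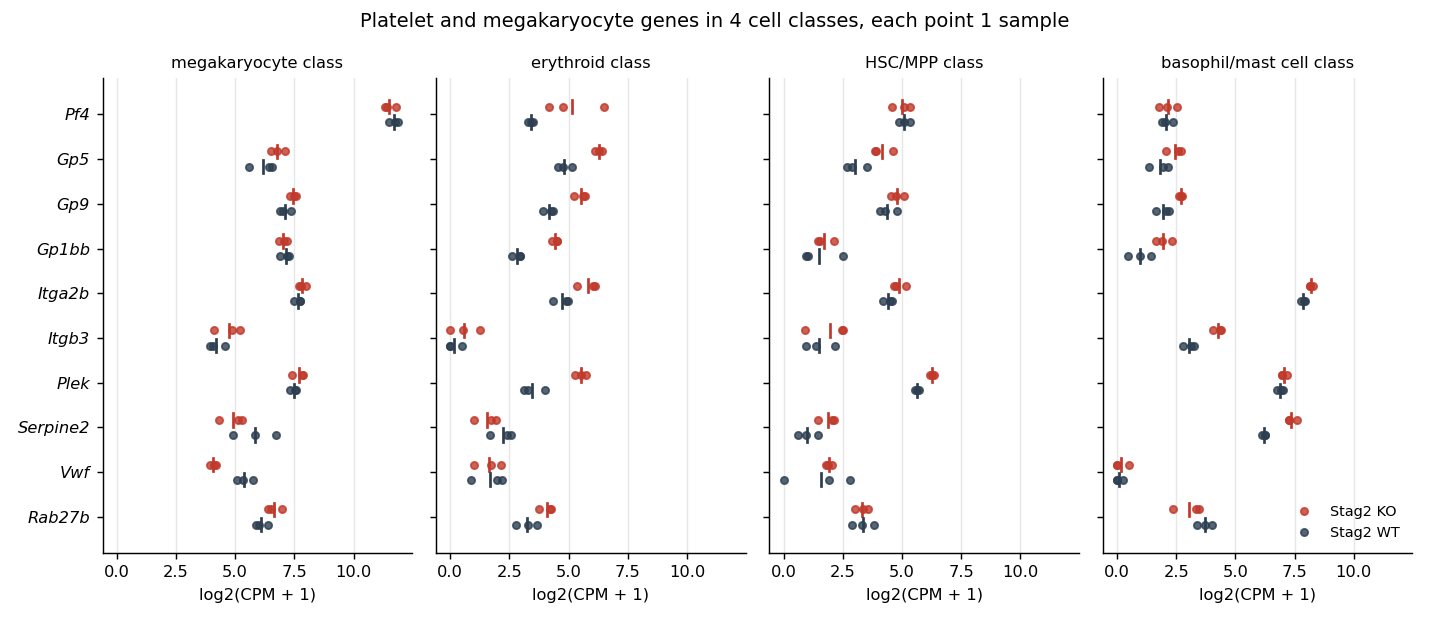
Level of each of the 10 genes as log2(CPM + 1) in 4 cell classes. A point is 1 sample, Stag2 KO above and Stag2 WT below for each gene, and a short line is the group mean. Pf4 lies between 2581 and 3765 CPM in the megakaryocyte class, and in the erythroid class the KO points of Gp5, Gp9, Gp1bb, Itga2b and Plek lie to the right of the WT points.

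To ask how Stag2 loss went with these genes, counts were summed per sample over the cells of a class, and KO was compared with WT across all genes of the class by edgeR's quasi-likelihood test, with Benjamini-Hochberg adjustment and a threshold of 0.05 on the adjusted p. A log2 fold change is KO over WT. The p-values measure the spread between 3 samples per genotype. In sums over cells, fewer cells that carry a gene and less RNA per cell cannot be told apart.

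In the erythroid class, 6 of the 7 genes that could be tested rose in KO samples and none fell, where 2.01% of all 8214 genes tested rose and 2.06% fell. The 6 were all 3 glycoprotein genes, Itga2b, Plek and Pf4, and their rise was between 2.10-fold and 4.23-fold. The median log2 fold change was 1.44 over the 7 tested genes and 0.01 over all genes tested. The 7 had passed a low-count filter that Itgb3, Serpine2 and Vwf did not pass, with 3, 10 and 11 UMIs in all KO cells and 1, 27 and 16 UMIs in all WT cells of the class.

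Gp5 was counted at 85.1, 67.9 and 76.4 CPM in KO samples, against 25.9, 34.2 and 22.7 CPM in WT samples. The lowest KO sample stood well above the highest WT sample, and the log2 fold change was 1.44 ± 0.16 (SE; adjusted p = 5.89e-05, edgeR). Gp9 was counted at 36.4, 51.2 and 48.0 CPM in KO samples, against 19.2, 18.4 and 14.1 CPM in WT samples. These groups did not overlap (log2 fold change 1.33 ± 0.20, adjusted p = 0.000744). Gp1bb was counted at 18.7, 21.6 and 21.5 CPM in KO samples, against 6.65, 6.68 and 5.04 CPM in WT samples. All KO samples were close together and above all WT samples (log2 fold change 1.70 ± 0.26, adjusted p = 0.000999). Gp1bb overlaps Sept5 on the same strand in the GENCODE M21 annotation, so reads of the 2 genes could have been assigned to either one or dropped.

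Itga2b, the alpha chain of the integrin, was counted at 40.0, 64.0 and 68.1 CPM in KO samples, against 28.8, 30.1 and 19.1 CPM in WT samples. The groups did not overlap, although KO sample 1 was closer to WT than the others (log2 fold change 1.07 ± 0.22, adjusted p = 0.00914). Plek was counted at 37.8, 52.1 and 44.5 CPM in KO samples, against 8.87, 15.03 and 7.57 CPM in WT samples. Its log2 fold change of 1.99 ± 0.24 was a 3.97-fold rise (adjusted p = 0.000105). Rab27b was counted at 12.3, 17.7 and 18.1 CPM in KO samples, against 11.8, 5.84 and 8.65 CPM in WT samples. It missed the threshold (log2 fold change 0.83 ± 0.30, adjusted p = 0.144), although the groups did not overlap. In T/NK cells, Plek was counted at 78.3, 71.9 and 78.0 CPM in KO samples and at 43.8, 47.4 and 53.6 CPM in WT samples. The 2 genotypes filled the clusters of that class unequally: cluster 4 held 202, 124 and 109 KO cells and 119, 196 and 293 WT cells, and cluster 7 held 59, 48 and 33 KO cells and 191, 240 and 363 WT cells. Within these clusters Plek lay closer between genotypes, at 133, 125 and 140 CPM in KO samples against 117, 113 and 124 CPM in WT samples of cluster 4, and at 13.4, 33.2 and 7.66 CPM in KO samples against 22.6, 29.0 and 28.1 CPM in WT samples of cluster 7.

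Pf4 rested on 1 cell. It was counted at 16.8, 26.6 and 88.3 CPM in KO samples, against 9.61, 8.77 and 10.4 CPM in WT samples (log2 fold change 2.08 ± 0.47, adjusted p = 0.019). In KO sample 3, a single cell held 110 of the 127 Pf4 UMIs, among 12232 UMIs of that cell. With the cell of most Pf4 UMIs left out of every sample, a setting chosen after these values were seen, Pf4 was at 15.5, 17.8 and 11.9 CPM in KO samples and at 7.50, 7.54 and 8.68 CPM in WT samples. The groups still did not overlap, but the log2 fold change was 0.85 and the adjusted p was 0.0942. The other 5 genes that rose kept an adjusted p under the threshold in that setting. Their counts were spread over many cells: the highest cell held at most 7 of the 187 Gp5 UMIs of KO sample 1.

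The share of cells with at least 1 UMI was compared after each cell was thinned to 2000 UMIs, which left out 0 to 5 shallower erythroid-class cells per sample. Gp5 was seen in 15.9%, 10.3% and 12.2% of KO cells, against 6.67%, 8.77% and 4.58% of WT cells, and in at most 0.308% of T/NK cells of any sample. Gp9 was seen in 9.56%, 11.97% and 8.72% of KO cells, against 1.67%, 4.39% and 3.44% of WT cells, and in at most 0.364% of T/NK cells. Plek was seen in 11.6%, 14.5% and 6.98% of KO cells, against 2.50%, 4.39% and 1.72% of WT cells. For these 3 genes every KO sample had a larger share than every WT sample. Without thinning, Gp5 was seen in 44.9, 42.7 and 42.2% of KO cells and in 20, 27.9 and 13.7% of WT cells.

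Cells with at least 1 of the 10 genes made up 45.0%, 42.7% and 44.2% of thinned KO erythroid-class cells, against 19.2%, 25.9% and 22.9% of WT cells. Cells with 2 or more of them made up 9.56%, 12.8% and 10.5% of KO cells, against 4.17%, 5.26% and 2.29% of WT cells. Such differences were not confined to this class. In T/NK cells the share with at least 1 was 19.9%, 19.3% and 21.4% in KO samples, against 11.3%, 10.0% and 11.9% in WT samples. Both shares were higher in every KO sample than in any WT sample of the basophil/mast cell, stem cell-like and T/NK classes. In the megakaryocyte class both shares overlapped between genotypes. With 3 against 3 samples, an exact two-sided permutation test of such a share cannot go below p = 0.1, so none is given.

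**Figure D2:**
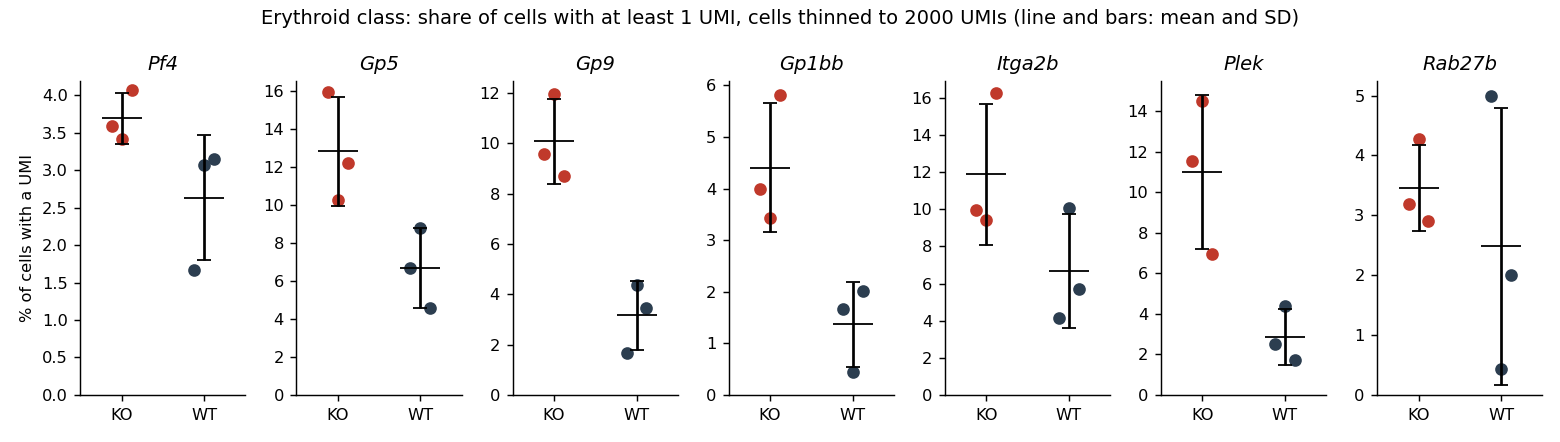
Percent of erythroid-class cells with at least 1 UMI of each of 7 genes after thinning to 2000 UMIs per cell, Stag2 KO left and Stag2 WT right; points are samples, the line and bars are the mean and SD of 3. The KO points lie above the WT points for Pf4, Gp5, Gp9, Gp1bb and Plek, and overlap with them for Itga2b and Rab27b.

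Marker genes of several cell types also differed within the erythroid class: of 15 marker lists, the summed level of 3 was higher in every KO sample than in any WT sample, and that of 5 was lower. The summed level of 20 megakaryocyte markers, which hold none of the 10 genes, was 202, 193 and 237 CPM in KO samples, against 155, 147 and 146 CPM in WT samples, far from the 784 to 1040 CPM of the megakaryocyte class. Of these sums, Dok2 alone made up 80.5, 51.2 and 83.4 CPM in KO samples, against 49.5, 26.3 and 24.1 CPM in WT samples. Without Dok2 the megakaryocyte marker sums of the genotypes overlap, in that KO sample 1 lies just below WT sample 3. KO samples 2 and 3 still lie above all WT samples. Early erythroid markers (18 genes) summed to 5549, 3815 and 4379 CPM in KO samples, against 5989, 5690 and 5953 CPM in WT samples. Stem cell-like (HSC/MPP) markers summed to 609, 679 and 548 CPM in KO samples, against 455, 543 and 467 CPM in WT samples. Late neutrophil markers summed to 251, 425 and 213 CPM in KO samples, against 96.8, 114 and 169 CPM in WT samples. Basophil/mast cell markers summed to 265, 413 and 347 CPM in KO samples, against 561, 449 and 576 CPM in WT samples, and monocyte, B cell and macrophage markers were lower too, each below 100 CPM in every sample. The part of these marker differences in the rise of the 6 genes was not tested. In the larger erythroid cluster alone, 6 genes also rose. With the title code prefix as a covariate, the KO effect sets the 3 KO samples against WT sample 1 alone, which is assumed to vary like the other samples. In that fit Gp5 and Plek kept an adjusted p under the threshold. Gp9, Gp1bb, Itga2b and Pf4 did not, at log2 fold changes of 1.07, 1.48, 0.82 and 2.02 (adjusted p = 0.11, 0.113, 0.285 and 0.25). Itga2b also lost the threshold without KO sample 3 (adjusted p = 0.059) and without WT sample 3 (adjusted p = 0.0686). Pf4 lost it without KO sample 3, WT sample 2 or WT sample 3 (adjusted p = 0.0769, 0.0778 and 0.0622). Of 19 alternatives run in this class, Pf4 passed in 12, and its log2 fold change was between 0.54 and 2.60 over all of them.

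Of 143 other platelet genes in 6 lists by function, 91 were tested in the erythroid class, and 22 rose and 4 fell in KO samples. Over all 8214 genes tested in the class, 2.01% rose and 2.06% fell. Transcription factors of megakaryocytes gave 8 higher and 1 lower of 20 tested (median log2 fold change 0.20). Among them, Meis1, a homeobox factor of stem cells and megakaryocytes, was counted at 71.9, 87.6 and 84.8 CPM in KO samples, against 32.5, 38.8 and 36.0 CPM in WT samples (log2 fold change 1.10, adjusted p = 0.000163). Meis1, and Angpt1 named below, are also on the HSC/MPP marker list, and Dok2, named below, is on the megakaryocyte marker list. The bHLH factor gene Lyl1 fell (log2 fold change -0.62, adjusted p = 0.0351).

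Platelet surface receptors gave 3 higher and 1 lower of 10 tested, with a median log2 fold change of 0.75. The adhesion receptor gene Pecam1 and the thrombin receptor gene F2r rose (log2 fold changes 1.10 and 0.90), and the ADP receptor gene P2ry1 fell (-1.22). Integrin and platelet signalling genes gave 5 higher and 1 lower of 24, with Rasgrp2, an activator of Rap1, at 0.71 and the adaptor gene Dok2 at 1.18, and Rgs10 at -0.71. Cytoskeleton genes gave 3 higher and 1 lower of 14, led by the focal adhesion gene Zyx. Zyx was counted at 120, 151 and 110 CPM in KO samples, against 50.3, 48.8 and 47.6 CPM in WT samples (log2 fold change 1.31, adjusted p = 4.48e-05). Bin2 rose (0.80), and Pdlim1 fell (-0.50). Granule protein genes gave 2 higher of 3 tested, Tgfb1 and Angpt1 (0.46 and 0.84). Granule biogenesis genes gave 1 higher of 20, Nbeal2, which is needed for alpha granules (log2 fold change 2.003, adjusted p = 0.0273).

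In the megakaryocyte class none of the 10 genes rose, and 2 fell, Vwf and Serpine2. All 10 could be tested, and over all 5877 genes tested 0.374% rose and 0.8% fell. The median log2 fold change was 0.16 over the 10 genes and 0.00 over all genes. By DESeq2, none of the 10 genes passed in either direction. At an unadjusted p under 0.05 edgeR gave 4 of the 10, Gp9 and Rab27b being higher, and 542 of all 5877 genes. Of the 15 marker lists, 3 summed higher in every KO sample than in any WT sample of this class and 4 lower. Basophil/mast cell markers summed to 297, 341 and 384 CPM in KO samples, against 491, 411 and 563 CPM in WT samples, and lymphoid progenitor markers to 457, 416 and 483 CPM in KO samples, against 639, 588 and 662 CPM in WT samples. Most of the lymphoid progenitor sums was 1 gene, Mef2c, at 375, 339 and 395 CPM in KO samples, against 542, 477 and 536 CPM in WT samples. B cell and plasma cell markers were also lower, and early erythroid, late erythroid and late neutrophil markers were higher, late erythroid ones at 173, 226 and 166 CPM in KO samples, against 126, 134 and 151 CPM in WT samples. Their part in the fall of Vwf and Serpine2 was not tested.

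Vwf was counted at 17.0, 16.0 and 14.2 CPM in KO samples, against 39.7, 52.6 and 32.7 CPM in WT samples. All KO samples lay close together and below all WT samples, and the log2 fold change was -1.45 ± 0.28, a 2.72-fold fall (SE; adjusted p = 0.00687, edgeR). These values rest on 46 UMIs in all KO cells and 71 UMIs in all WT cells of the class. Vwf lost the threshold without WT sample 2 (log2 fold change -1.17, adjusted p = 0.214), with the title code prefix as a covariate (-1.44, adjusted p = 0.451, against WT sample 1 alone) and by DESeq2 (-1.45, adjusted p = 0.0701).

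Serpine2 was counted at 34.0, 38.4 and 19.0 CPM in KO samples, against 28.9, 105 and 56.1 CPM in WT samples. The groups overlapped, since WT sample 1 lay below 2 KO samples, and the log2 fold change was -1.29 ± 0.30 (adjusted p = 0.0315). It lost the threshold without KO sample 1, KO sample 3, WT sample 2 or WT sample 3 (adjusted p = 0.0664, 0.174, 0.611 and 0.0536). With the title code prefix as a covariate, a fit that sets KO against WT sample 1 alone with its 29 cells, the log2 fold change was -0.08 (adjusted p = 0.984). By DESeq2 the adjusted p was 0.256.

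No receptor gene passed the test in this class. Gp1bb was counted at 146, 131 and 116 CPM in KO samples, against 119, 155 and 145 CPM in WT samples (log2 fold change -0.15 ± 0.14, adjusted p = 0.803). Gp9 was counted at 190, 176 and 160 CPM in KO samples, against 130, 117 and 165 CPM in WT samples (0.33 ± 0.14, adjusted p = 0.459). Gp5 was counted at 107, 136 and 89.2 CPM in KO samples, against 47.0, 93.1 and 85.7 CPM in WT samples (0.40 ± 0.19, adjusted p = 0.557). The genotypes overlapped for Gp1bb, Gp9 and Gp5. Itga2b, Itgb3 and Plek gave log2 fold changes of 0.12, 0.59 and 0.21 with adjusted p between 0.621 and 0.821. Rab27b was counted at 126, 89.7 and 83.5 CPM in KO samples, against 57.8, 82.3 and 62.4 CPM in WT samples, which did not overlap (0.51 ± 0.19, adjusted p = 0.362).

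Pf4 gave a log2 fold change of -0.22 ± 0.12 (adjusted p = 0.582). In thinned megakaryocyte-class cells it was seen in 53.0%, 50.7% and 51.5% of KO cells, against 65.5%, 58.0% and 62.5% of WT cells. Every KO share was below every WT share, and for WT sample 1 the exact (Clopper-Pearson) 95% interval, with 29 cells, was 45.7% to 82.1%. Of the 6 platelet lists, 100 of 143 genes were tested in the class, where 0.374% of all 5877 genes tested rose and 0.8% fell. None of the 100 rose and 3 fell. The 3 were Cd9, a tetraspanin gene (log2 fold change -0.71, adjusted p = 0.00143), Sdpr, a caveolar protein gene (-0.72, adjusted p = 0.0382), and Mef2c, a megakaryocyte transcription factor gene (-0.51, adjusted p = 0.0137). Mef2c was counted at 375, 339 and 395 CPM in KO samples, against 542, 477 and 536 CPM in WT samples, and is also on the lymphoid progenitor marker list.

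**Figure D3:**
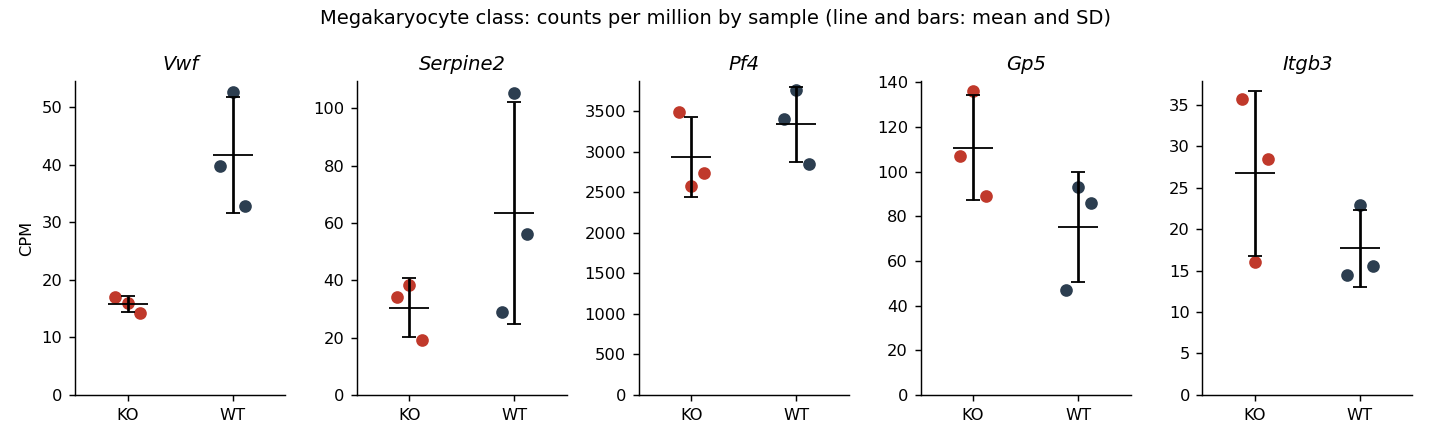
Levels (CPM) of Vwf, Serpine2, Pf4, Gp5 and Itgb3 in the megakaryocyte class, Stag2 KO left and Stag2 WT right in each panel; points are samples, the line and bars are the mean and SD of 3. Vwf lies between 14.2 and 17.0 CPM in KO samples, below all WT samples, and the other 4 overlap between genotypes.

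In the stem cell-like class, 1 of 6 tested genes rose in KO samples and none fell, where 0.477% of all 8813 genes tested rose and 1.23% fell. That gene was Plek, counted at 81.3, 72.0 and 75.2 CPM in KO samples, against 52.2, 48.7 and 46.0 CPM in WT samples. The groups did not overlap (log2 fold change 0.60 ± 0.14, adjusted p = 0.0161). Plek lost the threshold without KO sample 1, WT sample 2 or WT sample 3 (adjusted p = 0.113, 0.115 and 0.171), with the title code prefix as a covariate (adjusted p = 0.54) and by DESeq2 (adjusted p = 0.134). Of the 15 marker lists, that of early erythroid cells summed higher in every KO sample of this class than in any WT sample, and those of monocytes, lymphoid progenitors, macrophages and plasma cells summed lower, and their part in this rise was not tested.

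Gp5 was counted at 23.7, 14.0 and 13.7 CPM in stem cell-like KO samples, against 6.41, 10.6 and 5.31 CPM in WT samples. All KO samples were above all WT samples, and the test was just short of the threshold (log2 fold change 1.15 ± 0.31, adjusted p = 0.0596). It passed in only 2 of 16 alternatives, without the low-count filter (adjusted p = 0.00616) and without KO sample 3 (adjusted p = 0.0479). After thinning, Gp5 was seen in 3.97%, 2.03% and 3.94% of KO cells, against 0.725%, 0.398% and 1.24% of WT cells, every KO share being above every WT share. Pf4 (-0.06 ± 0.19), Gp9 (0.37 ± 0.22), Itga2b (0.43 ± 0.20) and Rab27b (-0.13 ± 0.31) did not pass. The median log2 fold change was 0.40 over the 6 tested genes and 0.00 over all genes. Gp1bb, Itgb3, Serpine2 and Vwf were too low to test, with 15, 24, 18 and 17 UMIs in all KO cells and 11, 10, 5 and 13 UMIs in all WT cells. For Vwf, read in some stem cells, no difference was detectable at this depth.

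Among the 6 platelet lists, 97 genes were tested in the stem cell-like class, and 3 rose and 4 fell in KO samples. Over all 8813 genes tested in the class, 0.477% rose and 1.23% fell. F2r rose here too, at 24.5, 24.6 and 28.3 CPM in KO samples against 10.997, 13.2 and 12.98 CPM in WT samples (log2 fold change 0.99, adjusted p = 0.0131). Rab38, a small GTPase gene of granule formation, and Pla2g4a, a phospholipase gene, rose by 0.42 and 0.79 on the log2 scale. Cd9 fell (-0.61), as did Rgs10 (-0.76), the tropomyosin gene Tpm4 (-1.36) and Lmo2 (-0.52), a bridging factor of blood transcription complexes.

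In the basophil/mast cell class, 2 of 9 tested genes rose, Serpine2 and Itgb3, and none fell, where 4.44% of all 9803 genes tested rose and 8.53% fell. Serpine2 was counted at 151, 194 and 151 CPM in KO samples, against 67.7, 75.9 and 75.3 CPM in WT samples. All KO samples were above all WT samples (log2 fold change 1.04 ± 0.11, adjusted p = 5.32e-06). Itgb3 was counted at 19.5, 20.1 and 15.6 CPM in KO samples, against 5.90, 7.78 and 8.55 CPM in WT samples, which did not overlap (log2 fold change 1.12 ± 0.19, adjusted p = 0.000642). The class's own 15 markers summed to 50146, 48379 and 53587 CPM in KO samples, against 82791, 89453 and 94816 CPM in WT samples. Late neutrophil markers summed to 470, 695 and 383 CPM in KO samples, against 184, 171 and 292 CPM in WT samples. Of the 15 marker lists, 2 summed higher and 7 lower in every KO sample than in any WT sample, and their part in the change of Serpine2 and Itgb3 was not tested.

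The partner chain Itga2b was counted at 279, 310 and 282 CPM in KO samples, against 247, 234 and 215 CPM in WT samples (log2 fold change 0.20 ± 0.08, adjusted p = 0.135). Plek was counted at 124, 143 and 125 CPM in KO samples, against 127, 121 and 107 CPM in WT samples (0.02 ± 0.09, adjusted p = 0.922). Itga2b did not overlap between genotypes and Plek did. Rab27b was counted at 4.14, 9.17 and 9.94 CPM in KO samples, against 12.2, 14.995 and 9.30 CPM in WT samples (-0.80 ± 0.28, adjusted p = 0.0687). Gp1bb, Gp9, Gp5 and Pf4 were at or below 5.64 CPM in every sample and did not pass (adjusted p = 0.0723, 0.092, 0.236 and 0.998). The median log2 fold change was 0.64 over the 9 tested genes and 0.01 over all genes. Vwf had 2 UMIs in all KO cells and 1 in all WT cells.

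Most basophil/mast cell-class cells of the 2 genotypes lay in different clusters. Cluster 1 (1652 cells) held 7, 4 and 5 cells of the WT samples, and cluster 19 (480 cells) held 2, 1 and 0. Cluster 0 (2460 cells) held 5, 6 and 4 cells of the KO samples, and cluster 16 (653 cells) held 16, 4 and 26. Serpine2 was at 205, 241 and 189 CPM in KO samples of cluster 1, against 67.2, 86.6 and 86.6 CPM in WT samples of cluster 0. Itgb3 was at 36.5, 34.8 and 27.9 CPM in KO samples of cluster 1, against 12.2, 15.5 and 18.3 CPM in WT samples of cluster 0. With these 2 largest clusters joined, 3 genes passed: Serpine2 (log2 fold change 1.28), Itgb3 (0.94) and Rab27b, which fell (-1.83, adjusted p = 0.00393).

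Clusters 23 and 25 had at least 20 cells in every sample of both genotypes and allow a comparison within a cluster, a setting added after the values were seen. In cluster 25, led by Prss34 and Mcpt8 with histone genes, Serpine2 was at 198, 229 and 235 CPM in KO samples, against 108, 103 and 92.7 CPM in WT samples (log2 fold change 0.995, adjusted p = 0.00057). In cluster 23, led by Gzmb, it was at 42.6, 30.5 and 34.2 CPM in KO samples, against 24.7, 8.78 and 22.8 CPM in WT samples (0.97, adjusted p = 0.244). The genotypes did not overlap in either cluster. Itgb3 was too low to test in cluster 23, in cluster 25 or in both summed. With both clusters summed, the log2 fold change of Serpine2 was 0.22 (adjusted p = 0.4), and KO samples held 123, 50 and 105 cells of cluster 23 and 42, 27 and 41 of cluster 25, against 24, 46 and 73 and 43, 105 and 119 in WT samples.

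**Figure D4:**
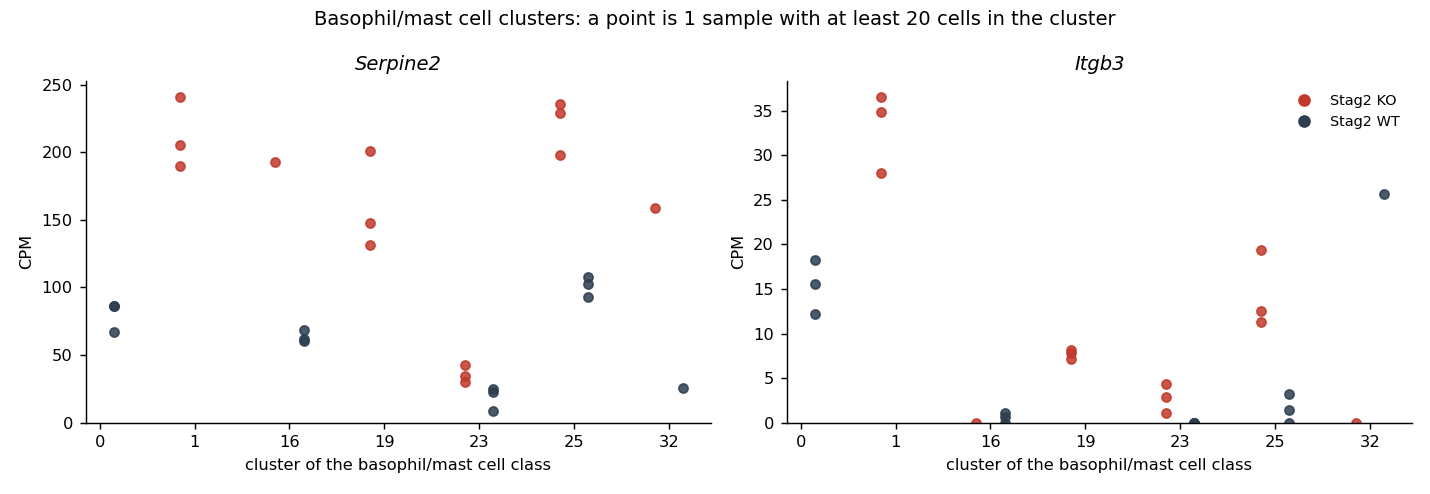
Levels (CPM) of Serpine2 (left) and Itgb3 (right) in each cluster of the basophil/mast cell class; a point is 1 sample with at least 20 cells in the cluster, Stag2 KO left of Stag2 WT. In clusters 23 and 25, which hold both genotypes, the KO points of Serpine2 and Itgb3 lie above the WT points, and Itgb3 was too low to test there.

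The 6 platelet lists had 101 genes tested in the basophil/mast cell class, and 10 rose and 16 fell in KO samples, where 4.44% of all genes tested rose and 8.53% fell. Megakaryocyte transcription factor genes gave 5 higher and 2 lower of 20. Runx1 was counted at 352, 290 and 337 CPM in KO samples, against 183, 154 and 163 CPM in WT samples (log2 fold change 0.86, adjusted p = 9.11e-06). Lmo2 and Klf1 fell (-0.37 and -0.82). Surface receptors gave 1 higher, Pear1 (0.85), and 4 lower of 12. Among them the ATP-gated channel gene P2rx1 was counted at 16.2, 14.1 and 19.7 CPM in KO samples, against 48.0, 47.5 and 40.3 CPM in WT samples (-1.53, adjusted p = 1.03e-06), and Cd9 fell by 0.95 on the log2 scale.

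Signalling genes gave 1 higher, Dgkg (0.66), and 6 lower of 25, led by the protein kinase C gene Prkcq (-1.79) and the adaptor gene Lat (-0.52). Granule biogenesis genes gave Rab38 (1.09) and Sytl4 (1.68) higher and Rab11a (-0.53) and Vamp8 (-0.30) lower, of 25. Of granule proteins, F13a1, clotting factor XIII subunit A, rose (1.45) and Srgn, the proteoglycan core of granules, fell (-0.42), of 4. The cytoskeleton list gave 1 lower of 15, Tpm4 (-0.53). The share that fell in the granule biogenesis and cytoskeleton lists was near or below the 8.53% of all genes.

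**Figure D5:**
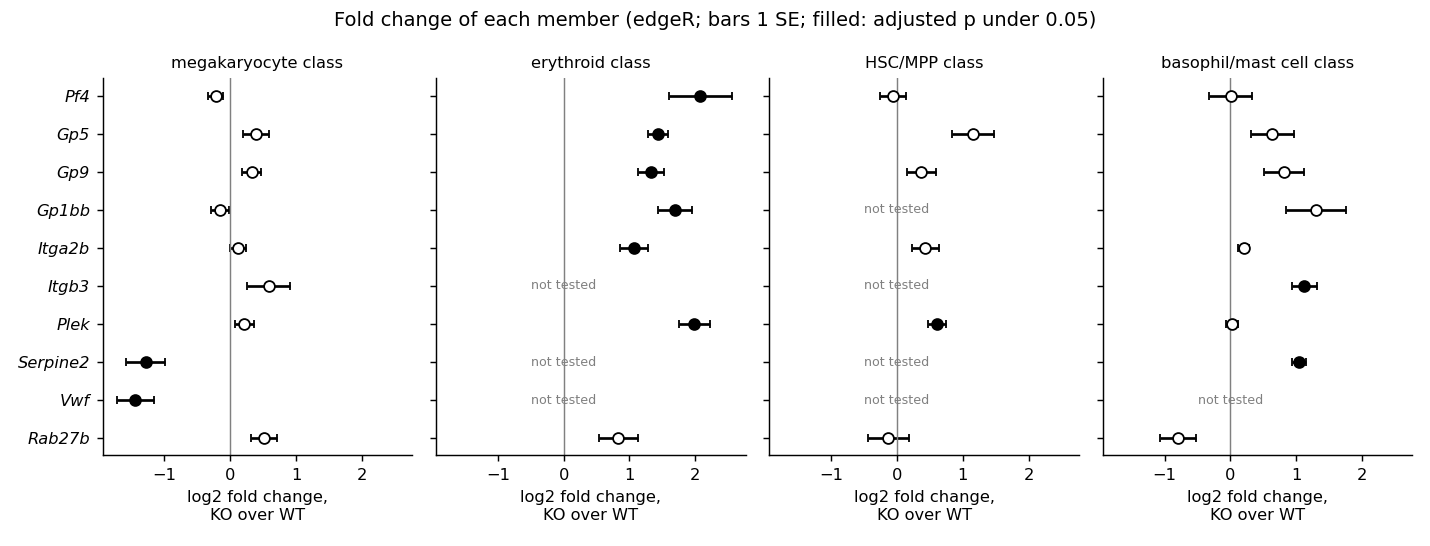
Log2 fold change, Stag2 KO over WT, of the 10 genes in 4 cell classes, with bars of 1 SE; filled points passed an adjusted p of 0.05 in edgeR, and genes too low to test are marked. The erythroid class holds 6 filled points to the right of 0, the megakaryocyte class 2 to the left, the stem cell-like class 1 and the basophil/mast cell class 2 to the right.

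Whether a class differed from the other 3 was tested directly for the 6 genes measured in all 4 classes (Gp5, Gp9, Itga2b, Pf4, Plek and Rab27b), by limma on each sample's log2 CPM in the class minus its mean over the other 3. For the erythroid class, none of the 6 genes passed, and 0% of all 5756 genes were called. At an unadjusted p under 0.05 there were 6 of the 6 genes, all with a larger KO effect in the erythroid class, and 675 of all genes. Plek had the largest difference against its error, 1.72 ± 0.24 on the log2 scale (adjusted p = 0.161), followed by Gp9 (0.82 ± 0.20, adjusted p = 0.265) and Gp5 (0.65 ± 0.17, adjusted p = 0.286).

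The megakaryocyte class and the stem cell-like class also gave no call by this limma test, with 0% of genes for each. At an unadjusted p under 0.05 they gave 2 and 0 of the 6 genes, and 431 and 538 of all genes. In the basophil/mast cell class 1 of the 6 passed, Plek, with a KO effect lower than in the other classes (-0.89 ± 0.11, adjusted p = 0.0219), where 1.29% of genes were called. That call was lost without any 1 of the 6 samples and with the title code prefix as a covariate.

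A comparison of the erythroid with the megakaryocyte class, added after the values were seen, called none of 7 genes (0% of 5807 genes by limma). At an unadjusted p under 0.05 there were 6 of the 7 genes and 483 of all genes. Gp1bb was the most apart, by 1.67 ± 0.23 (adjusted p = 0.291). The megakaryocyte against the basophil/mast cell class, where Serpine2 moved in opposite directions, called none of 9 genes (0.0344% of 5809 genes). The difference for Serpine2 was -1.95 ± 0.41 (adjusted p = 0.168), and 3 of the 9 genes and 728 of all genes had an unadjusted p under 0.05. A rise in the erythroid class that is particular to it was therefore not shown.

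Over the 24 sums (4 classes of 6 samples), the genes with levels among the most like Pf4 included Tmem40 (Pearson r = 0.940), Dusp3 (0.940), Sdpr (0.934) and Ptpn11 (0.930), of 8167 genes ranked. Among the 10 genes, Vwf (0.934), Gp9 (0.929), Rab27b (0.912) and Gp1bb (0.905) followed Pf4, and Itga2b (0.247) and Serpine2 (0.0818) did not. The genes most like Vwf were Pdcd4, Ptpn11, Sdpr, Txn1 and Tmem40, with r between 0.896 and 0.921. F2rl2, Sdpr, Ppbp, Mrvi1 and Lims1 were most like the mean of the 10 genes, with r between 0.903 and 0.916. These correlations of log2(CPM + 1) are descriptions: the 24 sums share 6 libraries and fall into 4 classes.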

How the data were processed

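The authors deposited 1 table per sample of UMI counts per cell and gene, with a cluster number per cell (unit other, not used), per the file headers; the aligner, the counting settings and the genome build are not given. Raw counts were used as deposited. Cells were dropped below 500 genes or above 20% mitochondrial counts; the 891 cells with the highest doublet scores (0.8% per 1000 cells) were removed. Cells were clustered together (Leiden algorithm, resolution 1.0) without integration from 2000 variable genes, the 10 genes left out, and named from marker lists. Counts were summed per sample and class and tested with edgeR 4.0.16 (TMM, filterByExpr, quasi-likelihood), with Benjamini-Hochberg adjustment over all genes tested; differences between classes used limma 3.58.1 (prior count 2). DESeq2 1.42.0, other scalings, filters, cell cut-offs, clusterings, a title code covariate and leaving out each sample were tried. The tests were checked on simulated counts. Median UMIs per kept cell were 3459 to 5940 per sample; intervals cover counting error only. The genes, lists and tests were chosen with earlier results of these data known. All 10 genes are named in every class, and of each platelet list up to 2 genes per class and direction, by smallest p. One gene that these rules name is not reported here. Numbers of samples follow accession order and pair nothing. Promoters came from RefSeq (GRCm38.p6), overlaps of genes from GENCODE M21.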

Additional observations from a re-analysis of the deposited data

Results flagged for a closer look

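Plek was flagged because the KO effect differed between classes by a test of that difference: in the basophil/mast cell class it was lower than the mean of the other 3 classes by 0.89 on the log2 scale (-0.89 ± 0.11, adjusted p = 0.0219, limma). Plek was at 124, 143 and 125 CPM in KO samples of that class and at 127, 121 and 107 CPM in WT samples, and it rose in the erythroid and stem cell-like classes. The call was lost on leaving out any 1 of the 6 samples, and most basophil/mast cell-class cells of the 2 genotypes lay in different clusters. No cause was tested.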

How the results depend on the processing

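Counts of the 10 genes called moved with the title code prefix, the test, the samples kept and the clustering. With the prefix as a covariate, which sets KO against WT sample 1 alone, 0 genes were called in the megakaryocyte class, 2 in the erythroid class and 0 in the stem cell-like class, and 0 in the test of the basophil/mast cell class against the other 3 classes. DESeq2 called 0 genes in the megakaryocyte class and 0 in the stem cell-like class, and 5 in the erythroid class. In the stem cell-like class, 2 were called without the low-count filter and 3 at Leiden resolution 0.5. Leaving out the cell with most Pf4 UMIs left 1 in the megakaryocyte class. In the basophil/mast cell class, 0 were called in clusters 23 and 25 summed, 0 in cluster 23 alone and 1 in cluster 25 alone. Leaving out 1 sample gave 0 to 2 called genes in the megakaryocyte class, 4 to 6 in the erythroid class, 0 to 2 in the stem cell-like class and 2 to 3 in the basophil/mast cell class, and 0 to 0 in the test of that class against the others. For these settings the cause was not tested. Over all genes, leaving out 1 sample gave 27 to 61 calls in the megakaryocyte class, 80 to 217 in the stem cell-like class, 153 to 311 in the erythroid class and 798 to 1421 in the basophil/mast cell class, against 69, 150, 334 and 1271 with all samples. The erythroid count was 196 without KO sample 2, 192 without KO sample 3 and 153 without WT sample 3, and the basophil/mast cell count was 822 without KO sample 1 and 798 without WT sample 2. Gp5 and Plek in the erythroid class passed in all 19 alternatives run there, and Itgb3 in the basophil/mast cell class in all 17 that could test it. Of the 20 run in the basophil/mast cell class, Itgb3 was too low to test in cluster 23, in cluster 25 and in both summed. No gene past the threshold changed direction in any alternative. At Leiden resolution 0.5 no cluster was named megakaryocyte, and the largest basophil/mast cell cluster had too few KO cells to be tested alone. No paired analysis was possible because the sample numbers follow accession order. The megakaryocyte class of WT sample 1, with 29 cells and 276890 UMIs, limits what can be seen of low genes such as Vwf.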

Other observations

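A cluster of 713 cells that the marker lists left unnamed, led by Pf4 and genes of mitosis, held the second highest Pf4 level of the 37 clusters. Pf4 was at 961, 633 and 689 CPM in its KO samples, against 709, 716 and 887 CPM in its WT samples, which overlap. Vwf was at 3.86, 2.73 and 2.73 CPM in KO samples, against 16.2, 11.4 and 6.27 CPM in WT samples, and Serpine2 was at 11.3, 9.998 and 6.36 CPM in KO samples, against 17.8, 17.5 and 20.1 CPM in WT samples. Neither pair of groups overlapped, and both genes lay on the same side as in the megakaryocyte class. At 2.73 to 16.2 CPM, the Vwf levels rest on few UMIs per sample. Gp5 was at 25.4, 38.2 and 27.7 CPM in KO samples, against 16.2, 24.5 and 19.4 CPM in WT samples. No test was run on these cells, which were looked at because of their values.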
